A study of Mus musculus with 6 samples.

Results

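The gene described here is Spp1, which encodes osteopontin, and it is 1 of 345 genes in the deposited table of RAW264.7 macrophages. It was chosen by its name, and 1 row of the table carries that name. RAW264.7 is an established line of mouse macrophages. The Control group holds 3 libraries of untreated cells. The 3 libraries of the G scaffold group are of cells grown in extract of a gyroid scaffold of the zinc alloy Zn-0.8Li, diluted 5-fold. The methods give 48 h for the extract cultures used for staining and qRT-PCR. They give no separate time for the sequenced cells, for which 48 h is taken here. The labels call these libraries Zn, and the treatment itself is described in the study's methods. Both groups are the same cell line, and no genetic change is described for either. RNA was extracted with Trizol and libraries were made with a SMARTER mRNA kit. The labels do not say whether the 3 libraries of a group are from separate cultures on separate days. The p-values of limma rest on the spread between these libraries, which may be technical, and pool it in part over the fitted genes.

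Osteopontin is a phosphorylated, acidic protein that macrophages, osteoclasts and osteoblasts secrete into the matrix of bone and of healing tissue. It belongs to the SIBLING family of bone and tooth matrix proteins. Cells bind it through integrins, which recognize an RGD motif or, after thrombin cleavage, a neighbouring motif read by the integrins that hold the α4 or α9 chain, and through CD44. In macrophages it is known as a factor of adhesion, migration and repair.

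The table lists Spp1 under the identifier MGP_SPRETEiJ_G0028477 on chromosome 5 from 102615552 to 102621487, on the plus strand. These are positions of the SPRET/EiJ mouse annotation used for the identifiers, although the labels name GRCm38 (mm10). The gene spans 5936 bases there, and its listed length is 1651 bases. The 250 bases before the more upstream of the 2 Spp1 starts in RefSeq (GRCm38.p6, chr5:104434861-104435110, plus strand) follow, since 5 genes of transcription factors known to act on Spp1 are in the table. Capitals mark matches to the motifs searched, on both strands.
Spp1 promoter: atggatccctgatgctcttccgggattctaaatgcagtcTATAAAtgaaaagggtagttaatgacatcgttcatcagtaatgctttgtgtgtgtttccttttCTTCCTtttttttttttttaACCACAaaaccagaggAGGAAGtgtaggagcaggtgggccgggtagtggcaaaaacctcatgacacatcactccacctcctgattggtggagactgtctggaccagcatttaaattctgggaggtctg
The Runx motif ACCACA is found 1 time, at position -128 from the start, and 14.0% of 32851 promoter windows of this length in the same RefSeq table hold it. The ETS motif AGGAAG is found 2 times, at -148 on the minus strand and at -112 on the plus strand, against 29.5% of the windows. The TATA motif TATAAA is found 1 time, at -211, against 12.4% of the windows. The AP-1 motif TGANTCA, the metal response element core TGCNCNC and the Egr motif GNGGGNG have no match in this window, and 6.75%, 44.4% and 60.3% of the windows hold them. The matches do not overlap each other. The matched Runx, ETS and TATA motifs are not those of the 5 listed factors, and no motif of Myc, 1 of the 5, was searched. A match to these letters is a description of the sequence and not of binding.

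Among the listed genes Spp1 has the rank 3 by level per kb in both groups, and its mean is 4.31-fold higher in the G scaffold group. The values are normalized counts, in which the reads of a gene are divided by the size factor of the library. The Control libraries have 4121, 4069.9 and 4455 normalized counts of Spp1 for replicates 1, 2 and 3. The G scaffold libraries have 18695, 17734.5 and 18073. The groups do not overlap, and the lowest G scaffold library is 3.98-fold above the highest Control library. Such a gap is common in this table, where the groups do not overlap for 99.7% of the genes, and 82.9% of the genes have all G scaffold libraries on the higher side. The means are 4215 ± 209 and 18167.5 ± 487 normalized counts (SD, n = 3 in each group). The values rest on 3761 to 4662 reads in Control and on 18382 to 18544 reads in the G scaffold group.

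**Figure D1:**
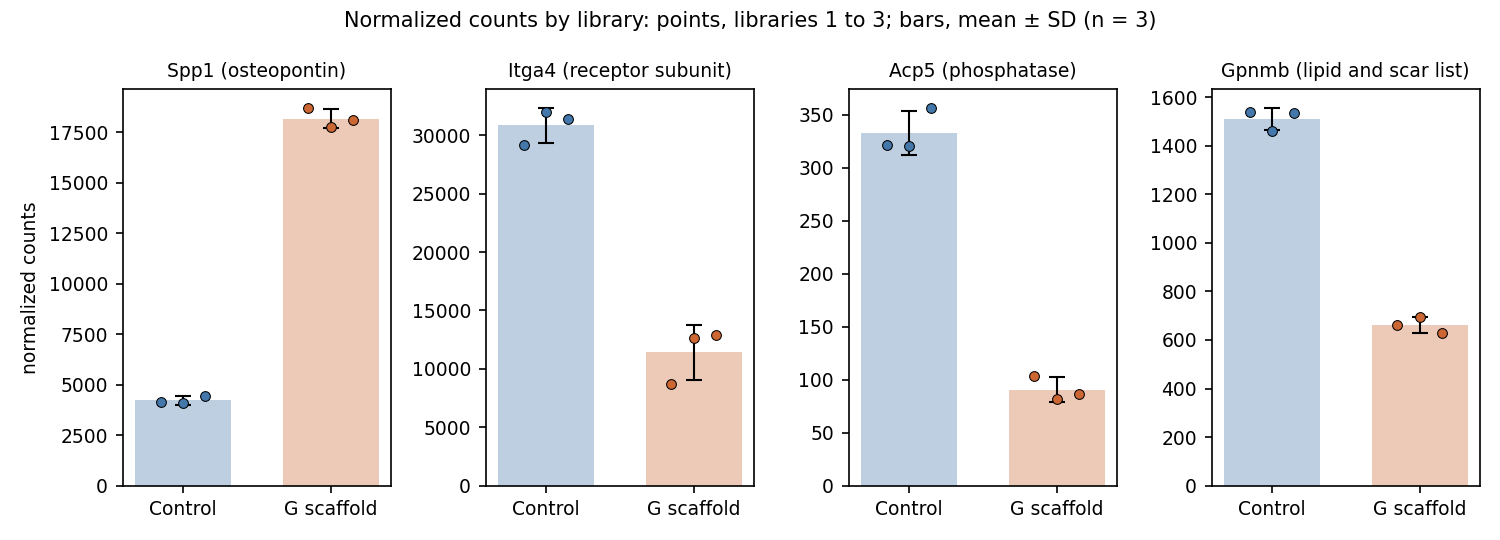
Normalized counts (vertical axes, from 0) of Spp1, Itga4, Acp5 and Gpnmb in each library; points are libraries, bars are means and error bars are SD (n = 3). Spp1 is near 4215 in Control and near 18167.5 in the G scaffold group, while the other 3 genes are lower in every G scaffold library than in every Control library.

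The log2 fold change of Spp1 is 2.11 with a standard error of 0.120 and a 95% interval from 1.82 to 2.40 (adjusted p = 1.5e-05, limma with Benjamini-Hochberg adjustment over 345 genes). As a fold this interval runs from 3.52 to 5.28. In limma the variance of each gene is drawn toward that of all fitted genes. The standard error, interval and p-value thus do not rest on Spp1 alone. With only genes of a mean of at least 100 in the fit, the standard error of Spp1 is 0.088. An exact two-sided permutation test of the 3 against 3 values gives p = 0.1, the smallest value that this design allows. The table holds only genes that the authors' own comparison of the same libraries had selected, so the test here cannot count as separate evidence. In the table as a whole, 82.6% of the 345 genes pass the same thresholds upward (1 or more on the log2 scale, with an adjusted p up to 0.05), and 15.9% pass them downward. That Spp1 passes is therefore what most listed genes do. The size of the change depends on the scaling. With TMM factors from the table's genes the log2 fold change is 0.62 (adjusted p = 0.0038), below the threshold of 1. These factors take the median of the 345 genes from 1.87 to 0.48 (a difference of -1.39), and Spp1 is 0.24 above that median without them and 0.15 above it with them. TMM assumes that most genes do not change, while 82.6% of these selected genes are called higher. A lower value under TMM was therefore fixed in advance, for Spp1 and for the genes given under it below.

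The spread of Spp1 within a group is small. Its coefficient of variation is 4.96% in Control against 2.68% in the G scaffold group. Counting error alone would give between 1.46% and 1.63% in single Control libraries and at most 0.738% in single G scaffold libraries. The median coefficient of variation is 7.77% over the 78 genes with a Control mean of at least 100, of which 19 are below Spp1. In the G scaffold group it is 8.26% over 108 such genes, and 5 of them are below Spp1. Nearly all of these genes have fewer reads than Spp1, which has rank 5 in Control and rank 2 in the G scaffold group without division by length. Their counting error is therefore larger, and the comparison was not corrected for read depth. In bulk samples, fewer cells of a type and less RNA per cell cannot be told apart, for Spp1 as for any gene named here.

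Compared per kb of listed gene length, Spp1 has rank 3 among the listed genes in every library of both groups. Genes that did not change are not listed, so this is not a rank among all genes of the cells. In Control it has 2553 ± 127 normalized counts per kb (SD, n = 3). Above it are Fxyd2, a regulatory subunit of the sodium pump, with 8563 ± 3118 and the metallothionein gene Mt1 with 5784 ± 990.05 per kb. Directly below it are Itga4 with 2197 ± 107 per kb and Mpeg1, a pore-forming protein of macrophages, with 2177 ± 140 per kb. The libraries of these 4 genes do not overlap with those of Spp1, but Spp1 exceeds Itga4 by 1.16-fold and Mpeg1 by 1.17-fold only. The 3 genes Spp1, Itga4 and Mpeg1 are thus near each other in Control.

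In the G scaffold group Spp1 stands apart from the listed genes below it, though genes that are not listed could lie between. It has 11004 ± 295 normalized counts per kb (SD, n = 3), behind Mt1 with 49274 ± 3642 and Mt2, also a metallothionein gene, with 29567 ± 2218 per kb. The next listed gene is Ccl3, a chemokine gene, with 3019 ± 406 per kb, and Spp1 exceeds it by 3.64-fold. Fxyd2 follows with 2481 ± 221 per kb. Mt1 and Mt2 resemble each other, so reads may have been shared out between them, and their single values are uncertain. Without division by length, Spp1 has rank 5 in Control and rank 2 in the G scaffold group.

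The share of Spp1 in the summed normalized counts of the listed genes is 4.40% ± 0.199 in Control against 12.1% ± 0.249 in the G scaffold group (SD, n = 3). By library the share runs from 4.23% to 4.62% and from 11.8% to 12.3%. These sums cover the listed genes and not the whole library. The mean of Spp1 differs by 13952 normalized counts between the groups, which is rank 3 in the table after Mt1 and Mt2. Over the 287 genes whose G scaffold mean exceeds the Control mean, Spp1 makes up 14.6% of the summed rises. Mt1 makes up 24.5% and Mt2 16.0%, so these 3 genes hold 55.1% of the sum.

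As a fold, the rise of Spp1 is in the middle of the table, and a smaller share of genes exceeds it at higher means. In all, 150 of the 345 genes have a larger fitted log2 fold change than Spp1, and the median over the table is 1.87. For 99 genes no Control library holds more than 3 reads, so their fitted values are no bounds, and with the genes of this kind at their bounds the median is 1.46. Among the 92 genes with a mean of at least 100 over the 6 libraries, 20 are higher. Among the 18 genes with a mean of at least 1000, 4 are higher, and 12 of the 18 rise in the mean.

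**Figure D2:**
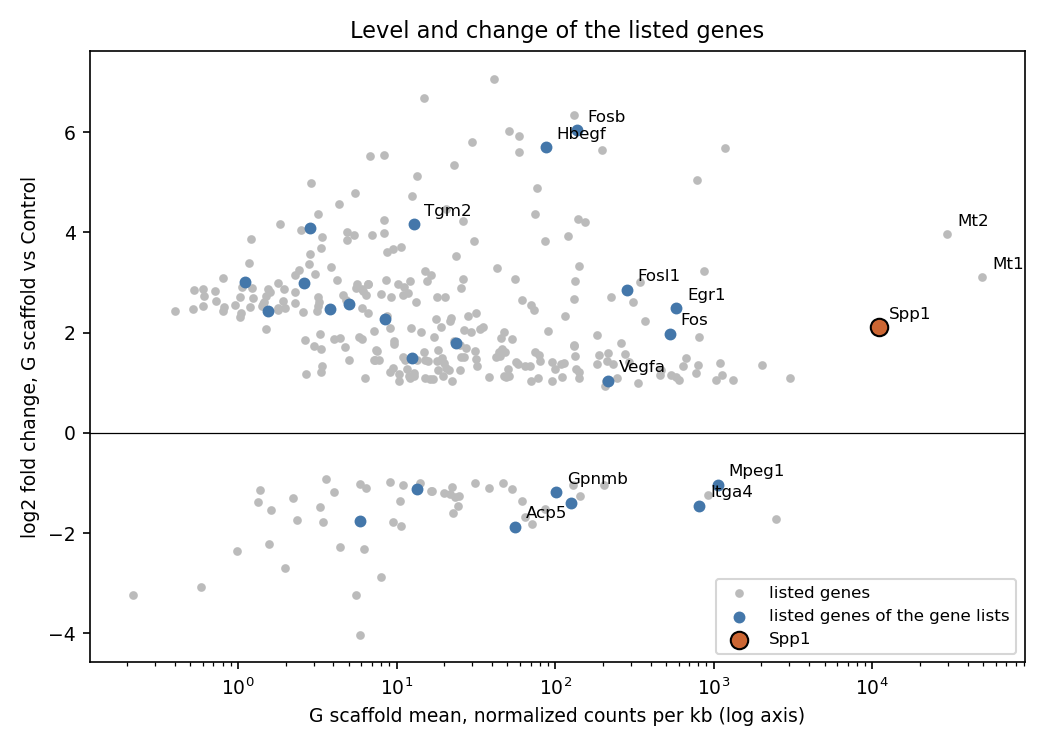
Log2 fold change (vertical axis, G scaffold vs Control) against the G scaffold mean in normalized counts per kb (horizontal log axis); grey points are listed genes, blue points the listed genes of the gene lists, and 2 genes at 0 in the G scaffold group are not drawn. Spp1 lies at 11004 per kb and 2.11, with Mt1 and Mt2 as the points to its right.

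The ratio of another gene to Spp1 within a library is nearly free of the size factor, which cancels except for the pseudocount of 1. In limma on these log2 ratios, 81 of the 344 other genes (23.5%) rise more than Spp1, and 139 (40.4%) rise less or fall, at an adjusted p of at most 0.05. The listed genes that fall were selected as lower and Spp1 as higher in these libraries, so their difference from Spp1 was fixed beforehand. For 124 genes no difference from Spp1 is found, which does not show that they change alike. These counts depend on the genes with few reads. With the 91 other genes at a mean of at least 100, a filter chosen after the values were seen, 19 rise more than Spp1 and 67 rise less or fall. With a pseudocount of 10 in place of 1, 33 rise more and 283 rise less or fall.

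Among the receptors of osteopontin, 1 of 10 listed chains and receptors is in the table, and it falls, as do 15.9% of the listed genes. This is Itga4, the integrin α4 chain, which pairs with β1 to bind cleaved osteopontin and also binds fibronectin and VCAM-1. Itga4 (chromosome 2) has 29138, 31979 and 31397.5 normalized counts in the Control replicates and 8729, 12638.5 and 12869.9 in the G scaffold replicates. The groups do not overlap, and G scaffold replicate 1 is the lowest library. The means are 30838 ± 1501 and 11413 ± 2327 (SD, n = 3 in each group), a 2.70-fold lower level. On the log2 scale this is -1.45 (adjusted p = 4.4e-04, limma with Benjamini-Hochberg adjustment). The chains of the other integrins that bind osteopontin and Cd44 are not in the table, and their values are not analysed here.

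Itga4 exceeds Spp1 in counts in every Control library, and Spp1 exceeds Itga4 in every G scaffold library. The ratio of Spp1 to Itga4 is 0.141, 0.127 and 0.142 in the Control libraries. It is 2.14, 1.40 and 1.40 in the G scaffold libraries, the highest of them in replicate 1, where Itga4 is lowest. The mean ratio is 12.1-fold higher in the G scaffold group. On the log2 scale Spp1 moves by 3.56 more than Itga4 (95% interval 3.06 to 4.07, adjusted p = 1.1e-05, limma on ratios with Benjamini-Hochberg adjustment over 344 genes). The ratio is of counts and not per length, so the change between groups can be read from it and not the balance of the transcripts. This and the other ratios given below were picked after the values were seen. The table had admitted Spp1 as higher and Itga4 as lower in these same libraries. A difference between them was fixed by that selection, so the p-value is no separate support. The same holds for the ratios to Acp5 and Gpnmb.

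**Figure D3:**
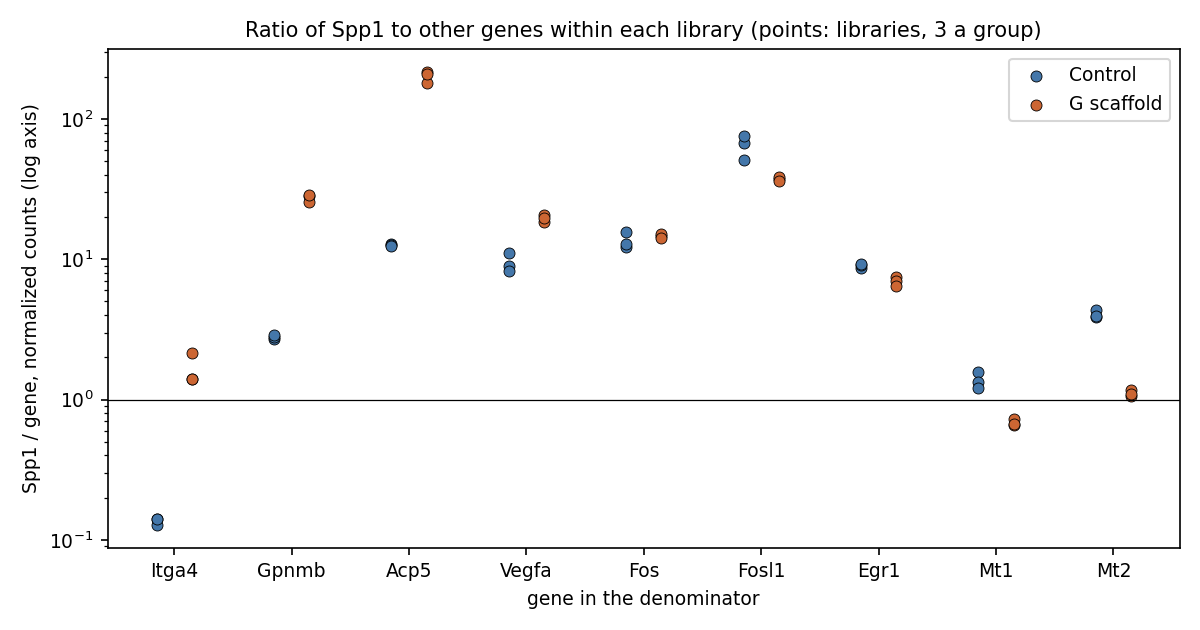
Ratio of the normalized counts of Spp1 to those of 9 other genes within each library (vertical log axis; horizontal axis, the gene in the denominator); each point is a library, 3 a group. The ratios to Itga4, Gpnmb, Acp5 and Vegfa are higher in all G scaffold libraries, those to Fosl1, Egr1, Mt1 and Mt2 lower, and those to Fos overlap.

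Of 14 genes on a list of enzymes that cut, cross-link or phosphorylate osteopontin or remove its phosphates, 3 are in the table, with 2 higher and 1 lower, beside 82.6% higher and 15.9% lower in the whole table. Acp5, the tartrate-resistant acid phosphatase of osteoclasts and macrophages, can remove phosphates from osteopontin. Its Control replicates have 321, 320.3 and 356 normalized counts, and its G scaffold replicates 104, 82.0 and 86.2. The groups do not overlap, and the change on the log2 scale is -1.87 (adjusted p = 6.3e-05 by limma after Benjamini-Hochberg adjustment). The ratio of Spp1 to Acp5 runs from 12.5 to 12.8 in Control and from 180.04 to 216 in the G scaffold group.

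Tgm2, tissue transglutaminase, cross-links osteopontin and other matrix proteins. Its Control replicates have 3, 2 and 2 reads, while its G scaffold replicates have 57.5, 52.1 and 67.6 normalized counts. With at most 3 reads in every Control library it is treated as not detectable there, and it is at least 19.5-fold higher against a floor of 3 reads in each Control library. This floor, used for all such genes here, covers counting error only. Mmp9, a matrix metalloproteinase that can cut osteopontin, has 2, 4 and 1 reads in Control against 20, 17 and 17 reads in the G scaffold group. It rises by 2.57 on the log2 scale (adjusted p = 6.2e-04, limma with Benjamini-Hochberg adjustment). The median log2 fold change of the 3 genes is 2.57, beside 1.87 for the whole table. With genes at their bounds these medians are 2.57 and 1.46. The value of 2.57 is in both cases that of Mmp9, which has few Control reads and depends on the pseudocount. It is 1.17 with a pseudocount of 10 and 3.05 with 0.1.

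Of 22 transcription factor genes known to act on Spp1 in some cell type, 5 are in the table and all 5 are higher in the G scaffold group, in a table where 82.6% of genes are. A count of 5 of 5 is close to that share and is not a result about these factors. They are Fos, Fosb and Fosl1, which are subunits of AP-1, Egr1, a zinc finger factor, and Myc. Fos has 265, 335 and 349.7 normalized counts in its Control replicates, against 1280.3, 1178 and 1274 after the extract. Its log2 fold change of 1.98 differs from that of Spp1 by -0.13 (95% interval -0.50 to 0.24), and the ratios of Spp1 to Fos overlap between the groups. Egr1 rises from 467 ± 17.3 to 2610.5 ± 179 normalized counts (SD, n = 3 per group), or by 2.48 on the log2 scale. Its difference from Spp1 is 0.37 (95% interval 0.035 to 0.71, adjusted p = 0.054, limma on ratios with Benjamini-Hochberg adjustment), which does not pass. The ratio of Spp1 to Egr1 is 8.71 to 9.29 in Control and 6.42 to 7.51 in the G scaffold group, without overlap.

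Of the 5, the other AP-1 genes, Fosl1 and Fosb, rise more than Spp1. Fosl1 rises by 2.86 on the log2 scale, with means of 66.8 ± 11.9 and 486 ± 25.7 normalized counts, and this is 0.75 above Spp1 (adjusted p = 0.0116, limma on ratios). Fosb rises by 6.03, with means of 7.82 ± 4.59 and 515 ± 48.8 normalized counts, and this is 3.93 above Spp1 (adjusted p = 4.3e-04, limma on ratios). Myc has 7, 9 and 20 reads in Control against 39, 28 and 34 in the G scaffold group, a log2 fold change of 1.50. TMM scaling over the listed genes lowers the value of every gene named here. Under it the 5 values are still positive, but Fos, Egr1 and Myc no longer pass, at 0.50, 0.997 and 0.095. The median of the 5 is 2.48, beside 1.87 for the whole table.

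**Figure D4:**
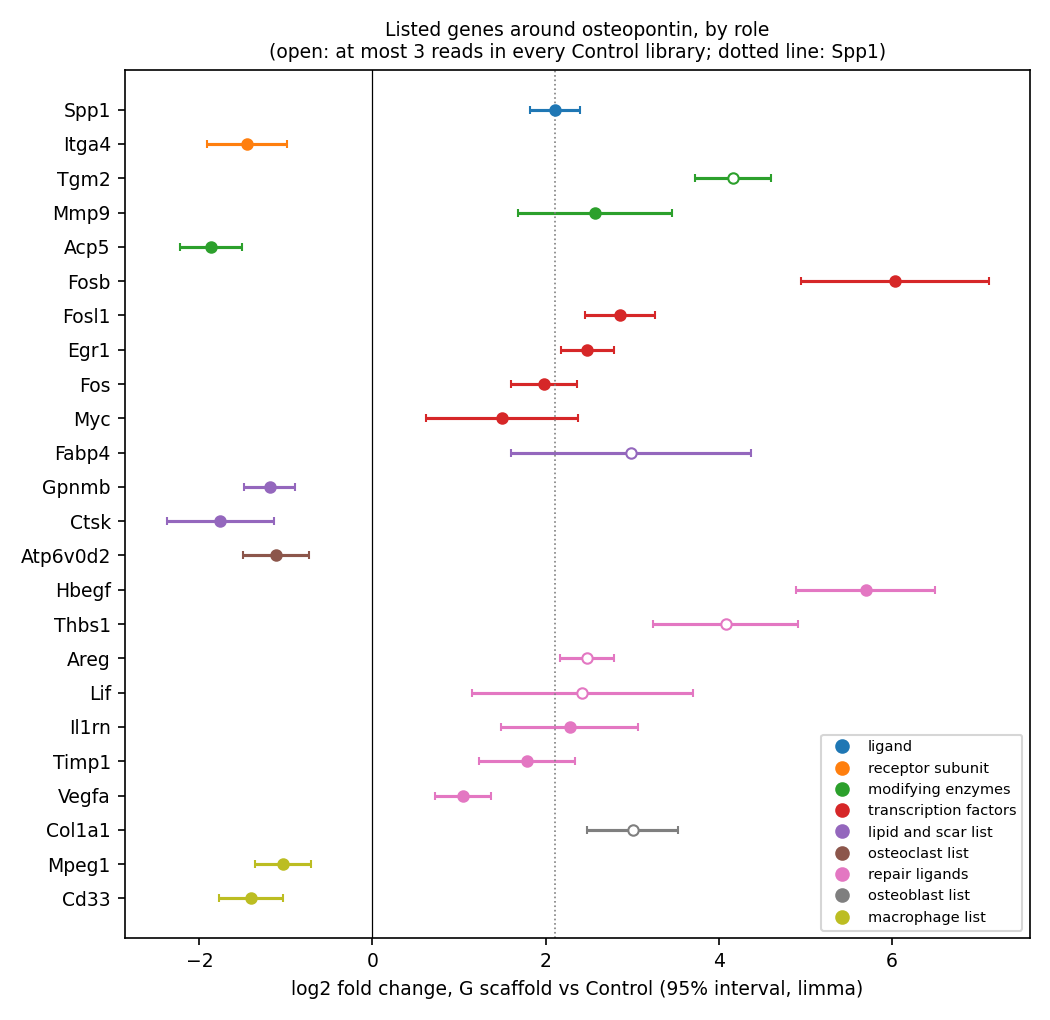
Log2 fold change (horizontal axis, G scaffold vs Control) of Spp1 and the 23 other listed genes of the gene lists, by role, with 95% intervals from limma; open points are genes whose Control libraries hold at most 3 reads each, and their fitted value is no bound. Spp1 is at 2.11 (dotted line), and Itga4, Acp5, Gpnmb, Ctsk, Atp6v0d2, Mpeg1 and Cd33 lie below 0.

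Spp1 is often read together with a set of lipid and scar genes that tissue macrophages express, such as Trem2, Gpnmb and the cathepsin genes. Of 26 genes on this list, 5 are in the table including Spp1, and they do not move one way. Spp1, Fabp4 and Mmp9 are higher, while Gpnmb and Ctsk are lower, beside shares of 82.6% higher and 15.9% lower over all listed genes. Gpnmb, a membrane glycoprotein of macrophages and osteoclasts, has 1538, 1459 and 1535 normalized counts in the Control replicates and 662, 696 and 629 in the G scaffold replicates. It changes by -1.19 on the log2 scale (adjusted p = 1.6e-04, limma with Benjamini-Hochberg adjustment), and the ratio of Spp1 to Gpnmb rises from 2.79 ± 0.111 to 27.5 ± 1.73 (SD, n = 3 in each group). Fabp4, a fatty acid binding protein, has 3, 0 and 0 reads in Control and 9, 15 and 12 after the extract, which is at least 3.88-fold higher. Without Spp1 the median log2 fold change of the list is 0.69, beside 1.87 for the whole table. With genes at their bounds these medians are 0.38 and 1.46.

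Osteoclasts also secrete osteopontin, and 4 of 17 osteoclast genes are in the table, with 3 lower and 1 higher, where 15.9% of the whole table are lower and 82.6% higher. Ctsk, the collagen-degrading cathepsin K, has 35.8, 27.1 and 32.5 normalized counts in Control against 11.1, 5.79 and 9.79 in the G scaffold group. Its change on the log2 scale is -1.76. Atp6v0d2, a proton pump subunit of osteoclasts, has means of 79.7 ± 13.1 and 36.1 ± 0.703 normalized counts (SD, n = 3 per group). It changes by -1.11 on the log2 scale, or by -0.98 once Control replicate 1 is left out. Acp5 falls as given above, and Mmp9 is the gene that rises. The median log2 fold change of the 4 genes is -1.44, beside 1.87 for the whole table.

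Markers of other cells were looked at beside Spp1. The summed level of the 4 osteoclast markers in the table (of 9) is between 421 and 465 normalized counts in Control and between 141 and 170.4 in the G scaffold group. Of 8 osteoblast markers 1 is in the table, Col1a1, a chain of type I collagen. It has 0 reads in every Control library and 8, 9 and 5 reads in the G scaffold libraries. It is also the only 1 of the 12 genes on the wider osteoblast list that is in the table, and it is at least 2.38-fold higher. None of 9 defining macrophage markers is in the table, so the labelled cell type could not be checked. Of a wider list of 12 macrophage genes, Mpeg1 and Cd33, an inhibitory receptor, are in the table and both are lower, as are 15.9% of the listed genes. Their median log2 fold change is -1.22, beside 1.87 for the whole table. Mpeg1 falls from 9263 ± 595 to 4530.02 ± 329 normalized counts, or -1.03 on the log2 scale, and misses the threshold at -0.98 if Control replicate 1 is left out and at -0.97 if G scaffold replicate 1 is. Cd33 falls from 1245 ± 138 to 470 ± 42.0 normalized counts, or -1.40 on the log2 scale. The part of any of these cells or genes in the rise of Spp1 was not tested.

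Of 28 genes of secreted repair ligands and matrix factors, 7 are in the table and all 7 are higher in the G scaffold group. With 82.6% of the whole table called higher, this count is close to the background and is not a result about these ligands. Hbegf, a growth factor of the EGF family, has 2, 2 and 6 reads in Control, against 204, 193 and 223 normalized counts after the extract (5.70 on the log2 scale). Vegfa, the main growth factor of blood vessels, has 459, 490.2 and 403 normalized counts in Control against 907, 961 and 914 in the G scaffold group. Its log2 fold change is 1.04, or 0.97 if Control replicate 3 is left out. Under TMM scaling, which lowers the value of every gene named here, it is -0.44. Spp1 rises by 1.06 more than Vegfa on the log2 scale (95% interval 0.67 to 1.46, adjusted p = 0.0016, limma on ratios with Benjamini-Hochberg adjustment).

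The other ligands of the list are far lower in reads than Spp1. Il1rn, the antagonist of the interleukin-1 receptor, has means of 9.89 ± 4.46 in Control and 48.8 ± 4.73 after the extract. For Timp1, an inhibitor of metalloproteinases, the means are 5.43 ± 1.41 and 21.0 ± 3.90 normalized counts (SD, n = 3 per group). Neither passes under TMM scaling, which lowers both, at 0.87 for Il1rn and 0.44 for Timp1 on the log2 scale. Thbs1, the matrix protein thrombospondin-1, has 0 reads in Control and 15, 28 and 10 after the extract, which is at least 5.71-fold higher. Areg, another factor of the EGF family, and Lif, a cytokine that signals through gp130, are at least 1.51-fold and 2.26-fold higher. Without G scaffold replicate 2 the bound for Lif is 1.32-fold. The median log2 fold change of the 7 genes is 2.42, and 1.79 with Areg, Lif and Thbs1 at their bounds, beside 1.87 and 1.46 for the whole table. Of the 5 genes of the SIBLING family, Spp1 is the 1 in the table.

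The pattern of Spp1 over the 6 libraries was compared with that of the 91 other genes with a mean of at least 100, by the root mean square distance of log2 values centred on the Control mean. The 5 nearest are Ddit4, A930011G23Rik, Fos, Pla2g5 and Ccl4, with distances from 0.107 to 0.202. Ddit4, an inhibitor of mTORC1, has means of 131 ± 2.83 and 622 ± 21.6 normalized counts (SD, n = 3 per group), and rises by 2.24 on the log2 scale, 0.13 more than Spp1 (95% interval -0.20 to 0.46). The distance includes the change between the groups, so the 5 were picked for a change like that of Spp1. The interval for Ddit4 is therefore no separate support for a like change. A930011G23Rik, on the same chromosome as Spp1, rises from 72.0 ± 2.75 to 296 ± 24.9, and passes the minimum of 100 only through its G scaffold values. Pla2g5, a secreted phospholipase, rises from 133 ± 17.2 to 518 ± 59.5, and Ccl4, a chemokine, from 142 ± 23.8 to 532 ± 66.9. Their Pearson correlations with Spp1 over the 6 libraries are between 0.987 and 0.999. The 68 genes at this mean, apart from Spp1, with a higher level in the G scaffold group have a median correlation of 0.992, so a high correlation is not special to the 5.

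On chromosome 5 the table lists 25 genes. The nearest on either side of Spp1 are Arhgap24, a GTPase-activating protein, at 1.60 Mb and Hfm1, a helicase of meiosis, at 2.48 Mb. Arhgap24 has 27.8, 31.4 and 35.4 normalized counts in Control, and 12.1, 15.4 and 7.83 after the extract (-1.39 on the log2 scale). Hfm1 has 0 in each Control library and 18.1, 11.6 and 17.6 in the G scaffold group. The neighbours of Spp1 in the table thus move in opposite directions.

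**Figure D5:**
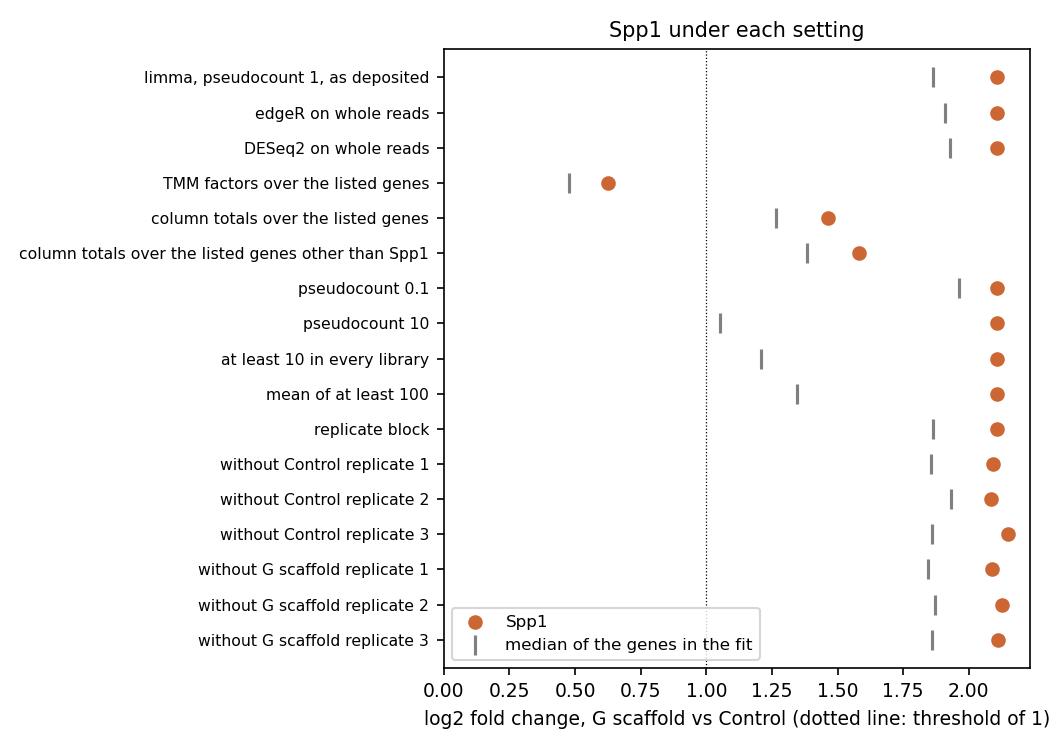
Log2 fold change of Spp1 (points) and the median of the genes in each fit (grey ticks) under each setting (horizontal axis; the dotted line is the threshold of 1). Spp1 lies between 2.08 and 2.15 except under TMM scaling (0.62) and under totals of all listed genes (1.46) or of those other than Spp1 (1.58).

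No single library sets the value of Spp1, and since the groups do not overlap none left out could reverse its direction. Leaving out 1 library at a time gives log2 fold changes between 2.08 and 2.15. Column totals over the listed genes give 1.46, and totals over the listed genes other than Spp1 give 1.58. In each setting drawn in that plot the Spp1 value is above the median of the genes fitted.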

How the data were processed

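RNA-seq of 3 Control and 3 G scaffold libraries of RAW264.7 cells was analysed from 1 table. In the deposited signal columns the authors scaled the read count of each gene by a size factor of the library (0.924 to 1.05). Multiplied back, 100% of values lie within 0.02 of whole reads, and these reads were recovered. For 2 libraries this value is so near 1 that an automatic test could not judge it. The authors' deposited log2 fold change, p-value and adjusted p-value columns hold their own comparison and were not used. The paper names an online platform for the analysis, and the aligner is not given in the sources used here. The submitters' processing notes name GRCm38 and mm10, while 329 of 345 identifiers are of the SPRET/EiJ annotation. The table holds genes past the authors' thresholds, and its sums (88836 to 156029 reads) are not the depth of the libraries.

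Groups were compared with limma 3.58.1 under R 4.3.3 on log2(value + 1), fitting group alone and adjusting by Benjamini-Hochberg over 345 genes, and the same on the log2 ratio of each gene to Spp1 (344 genes). Fold changes on this scale understate the change of low genes. A call needs a change of 1 or more on the log2 scale with an adjusted p up to 0.05, and for ratios the adjusted p alone. Alternatives were edgeR 4.0.16 and DESeq2 1.42.0 on recovered reads, other scalings, pseudocounts and filters, a replicate block and each library left out. The fits were tested on simulated data that held no genes with few Control reads and no selection of genes. That test does not cover these features of the table. No 2 libraries of a group were alike within counting noise (chi-square per degree of freedom 2.13 to 7.93).

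Spp1 and the 9 gene lists were chosen with earlier results of these data known. Genes named are all listed members of these lists, the 5 genes of most like pattern and the 2 genes next to Spp1 on either side by level per kb. The neighbours on chromosome 5 were chosen after their values were seen. Plots were made in matplotlib 3.10.9.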

Additional observations from a re-analysis of the deposited data

How the results depend on the processing

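The direction of Spp1 held in every alternative run, but Spp1 was selected as higher in these libraries and its groups do not overlap. Leaving out a library could not have reversed it. Its log2 fold change was 2.11 with edgeR and with DESeq2 on recovered reads and with either other pseudocount. The recovered reads were scaled by the same size factors as the deposited values, so edgeR and DESeq2 could hardly give another value. Either pseudocount is small beside the counts of Spp1. The sameness of these values was thus fixed in advance and is no separate support. Under TMM scaling the value fell to 0.62, no longer past the threshold of 1. TMM assumes that most genes do not change, and 82.6% of the listed genes are called higher. Leaving out 1 library gave 2.08 to 2.15. The numbers of listed genes called higher and lower (285 and 55) were 276 to 283 and 50 to 53 without 1 library. They were 135 higher with TMM factors, 115 higher among genes with at least 10 in every library, and 68 higher and 23 lower with a mean minimum of 100, where fewer genes are tested. Genes that rise more than Spp1 (81) numbered 72 to 81 without 1 library, 33 with pseudocount 10, 15 among genes with at least 10 in every library and 19 at that mean minimum. Genes that rise less or fall (139) numbered 125 to 137, 283 with pseudocount 10 and 67 at that mean minimum. Of these, the ratio counts at the mean minimum (19 and 67) were chosen after seeing the data, and pseudocount 10 was not. The rank of Spp1 among the listed genes, 3 per kb in both groups, was 5 (Control) and 2 (G scaffold) without division by length. Of the 24 genes of the lists in the table, 17 stayed past the thresholds with TMM factors, and Vegfa reversed there (-0.44). With column totals Vegfa (0.40) and Myc (0.89) were under 1, and with pseudocount 10 Atp6v0d2, Col1a1, Fabp4, Lif and Areg were.

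No pairing by replicate number is seen in these genes: same-numbered libraries deviate with correlations of -0.066, -0.054 and 0.054 over 92 genes. Only the libraries numbered 3 correlate best with each other. This cannot exclude that same-numbered libraries share a culture day or batch, which the labels do not say. With the replicate block the log2 fold change of Spp1 was 2.11 (adjusted p = 6.6e-04, limma with Benjamini-Hochberg adjustment), and 284 genes were higher and 55 lower. Read depth limits the genes with at most 3 reads in a group and not Spp1.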
